A study of Mus musculus with 2 samples.

Results

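The array carried 2284 transcript rows for which its annotation gives no gene ID. They are 5.17% of the 44170 transcript rows, and the other 41886 carry a gene ID. The members were found in the annotation field of each row, either with the gene ID written as not available or with none given, so no measured value entered the choice. Gene expression was compared between long-term haematopoietic stem cells (LT-HSCs) of 2 genotypes, sorted from bone marrow, the mice being C57BL/6 and 8 weeks old. One sample came from mice with the intact cia-cGAS locus, called wild type here, and the other from cia-cGAS knockout mice, cia-cGAS being a circular RNA per the labels. Each genotype had 1 single-colour NimbleGen array, hybridised with cDNA of total RNA primed with oligo dT. The sources used here do not state how the knockout was made, how many mice gave cells or which sort markers were used. With 1 array per group no difference below has a replicate check, no test was run, and every value describes these 2 samples.

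Rows of this kind come from the era in which arrays were designed on sequenced cDNA clones. Such clones include whole protein-coding transcripts, alternative ends and retained introns of known genes, rearranged antigen receptor transcripts, transposon transcripts and RNAs with no known product. LT-HSCs sustain blood formation over the long term. The DNA sensor cGAS, after which the circular RNA is named, signals through STING to type I interferon. Interferon in turn acts through the factor ISGF3, while NF-kB drives many inflammatory genes.

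The files hold no sequence for the rows or their probes, so the clones cannot be printed. The promoters of B2m and Ifi208 are shown because a row without a gene ID lay on each gene and was brighter in the knockout, and because each holds a motif of the kind that interferon-activated factors can bind. The genes and the motif forms were chosen after the values and the matches were seen. The sequences are the 250 bases before the annotated start, from RefSeq on GRCm38.p6, at chr2:122147437-122147686 and chr1:173673415-173673664, both on the plus strand. Capitals mark the core of the interferon-stimulated response element (ISRE), spelled GAAA, any 2 bases, GAAA, and a form of the kB site, spelled GGGA, any base, TTTCC. Both were searched on both strands, and they do not overlap here.
B2m: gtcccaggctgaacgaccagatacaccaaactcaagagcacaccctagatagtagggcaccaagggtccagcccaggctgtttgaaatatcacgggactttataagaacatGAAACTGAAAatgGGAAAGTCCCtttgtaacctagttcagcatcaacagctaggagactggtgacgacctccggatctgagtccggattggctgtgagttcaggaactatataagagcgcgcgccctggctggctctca
Ifi208: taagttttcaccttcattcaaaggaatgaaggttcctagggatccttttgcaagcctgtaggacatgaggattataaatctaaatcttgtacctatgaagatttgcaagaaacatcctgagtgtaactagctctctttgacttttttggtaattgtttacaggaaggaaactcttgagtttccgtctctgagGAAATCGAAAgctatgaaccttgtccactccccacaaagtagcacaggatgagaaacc
In B2m the ISRE core lies from 139 to 130 bases before the start on the plus strand, and the kB site from 126 to 117 bases before it on the minus strand. In Ifi208 the ISRE core lies from 58 to 49 bases before the start. Of 32851 RefSeq promoters of the same length, 978 (2.98%) hold the ISRE core and 117 (0.356%) the kB site. These shares are per promoter, whereas a gene below counts as a match if any of its promoters matches, so they are not like for like. The rows that rose by 2-fold or more lay on 34 genes, counting the overlapping gene of closest span, and 22 of these had a promoter in the RefSeq table. Ifi208 is not among them, since its row has a bound under 2-fold. The ISRE core was found in 2 of those 22, B2m and Zfp982, and the kB site in 1, B2m. For lower rows, 19 of 24 genes had a promoter, with the ISRE core in 1, Suclg2, and the kB site in 0. Another 3 patterns were looked at: GGG, any 2 bases, TTTCC, then GGGA, any 2 bases, TTCC, and TTCNNNGAA. They matched 1, 2 and 2 of the 22 genes and 2, 0 and 2 of the 19, and 1.41%, 1.21% and 7.02% of all promoters. A match is a description of the letters, not of a bound site.

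Rows count as detected above a floor taken from 1025 rows for smell and taste receptors, whose 95th percentile was used for each array. The wild-type floor was an intensity of 552, or 9.11 on the log2 scale, and the knockout floor 500.4, or 8.97. Markers of the label were mixed: Kit and Ly6a lay above both floors, while Procr and Slamf1 lay below both. All 8 neutrophil markers lay above both floors, with summed intensities of 164088 (wild type) and 212768 (knockout). Of 7 B lineage markers on the array, 4 passed the wild-type floor and 2 the knockout floor, with summed intensities of 11789 and 2236. Cd79a and Igll1 were below both floors. In bulk RNA, fewer cells of a type and less RNA per cell cannot be told apart.

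Fewer of the rows without a gene ID gave a signal than of the other rows. Above the floor on at least 1 array were 611 of the 2284, or 26.8%, against 39.2% of the rows with a gene ID. Of these, 465 were above both floors, 107 above that of the knockout alone and 39 above that of the wild type alone, and 1673 were below both. Log2 medians over all members were 7.34 (wild type) and 7.32 (knockout), against 8.14 and 8.12 for rows with a gene ID. Those that were detected included some of the brightest on the array. Among the 100 transcript rows with the highest mean level, 13 had no gene ID. Probes differ in affinity, so the order of intensities is not one of abundance. Of members above both floors, 10.3% had a mean level of 14 or more, against 3.97% of such rows with a gene ID.

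**Figure D1:**
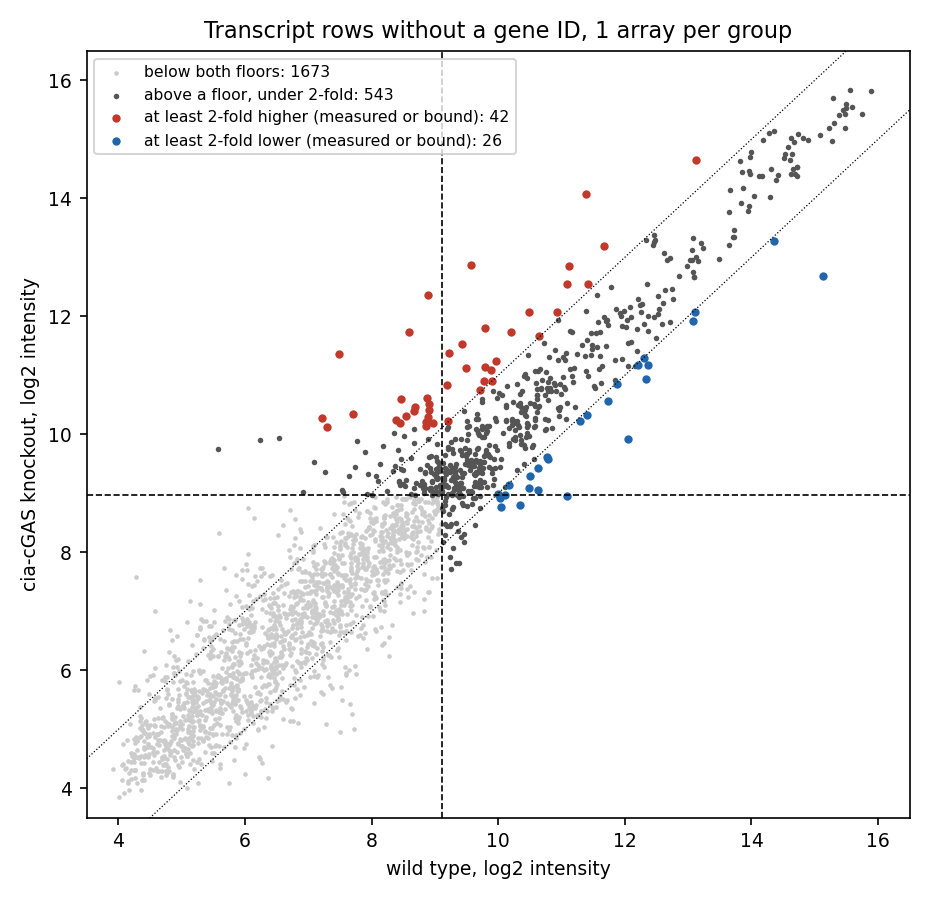
Log2 intensity of each of the 2284 rows in the wild type (x axis) and the knockout (y axis). Each point is 1 row, dashed lines are the floors of 9.11 and 8.97, and dotted lines mark a 2-fold difference. The 42 rows at least 2-fold higher lie above the band and the 26 lower rows below it, and 1673 rows lie below both floors.

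What the record of a row says went with whether it was detected. Clones of the RIKEN collection whose product is given as unclassifiable were the largest kind, with 809 rows, and 91 of them (11.2%) lay above a floor. Of 211 clones matched by the annotation to an Ensembl transcript, 117 (55.5%) were detected. Clones with strand unspecified were close to these, with 70 of 128 (54.7%). Of 150 predicted RefSeq models 24 were detected (16%), and of 248 RIKEN clones with a named product 75 (30.2%). By source library, 40 of 184 clones from blood and immune tissues were detected (21.7%), 40 of 332 from the nervous system (12%) and 29 of 258 from reproductive tissue and eggs (11.2%). These kinds and libraries were grouped from the record text after the values were seen.

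**Figure D2:**
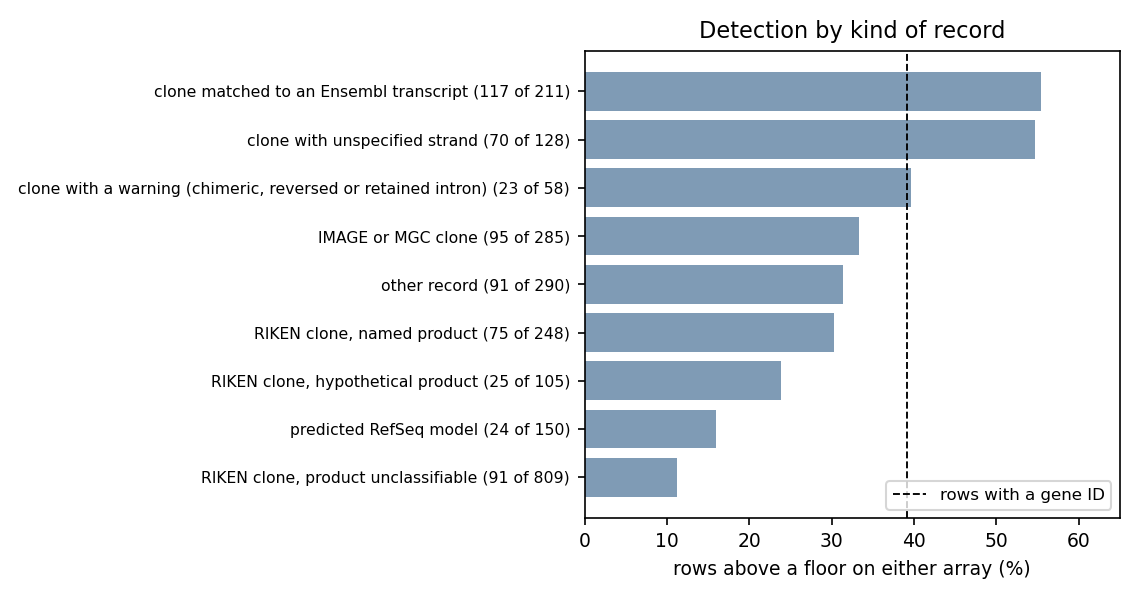
Share of rows above a floor on either array, in percent, for each kind of record, with counts beside the names. The dashed line is the share among rows with a gene ID, 39.2%. Ensembl-matched clones reach 55.5% and unclassifiable RIKEN clones 11.2%.

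Position ties most of these rows to known genes. Of the 2284, 1595 overlapped the span of a row with a gene ID on the MM9 assembly, 1253 of them on 1 gene and 342 on several, and 689 overlapped none. No row with a gene ID lay within 100 kb of 112. Spans ran from 47 to 2025338 bases, with a median of 6094. The files give spans without exons or strand, so a row is said to lie on a gene without saying whether its probes are exonic, intronic or antisense.

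Between genotypes the centre of these rows hardly moved, and higher and lower rows were similar in number above both floors. Above both floors, 23 of 465 rows were higher in the knockout by 2-fold or more and 22 were lower by as much. These are 4.95% and 4.73% of the members, against a background over all transcript rows of 5.87 percent higher and 4.0 percent lower. At a 4-fold limit 5 rows were higher and 2 lower, against backgrounds of 1.66 percent and 0.243 percent. A row above 1 floor alone has only a bound, its measured value against the other floor. Bounds added 19 higher and 4 lower rows. That makes 42 higher and 26 lower of 611, or 6.87% and 4.26%, against backgrounds of 6.14 percent and 3.82 percent. Both shares lie near the background. The median difference, knockout minus wild type, was 0.0037 on the log2 scale over the 611 rows and 0.0058 over all transcript rows detected. The arrays correlated with r = 0.939 across the 465 members above both floors and r = 0.889 across such rows with a gene ID. Rows are not independent replicates, and both values rest on the same 2 arrays.

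The pair of clones on Rnf213 and those on Resf1 and Trim34a were higher in the knockout, none of these genes being on the list of type I interferon-stimulated genes used below. U76754, recorded as an mRNA induced by interferon alpha in mouse embryonic fibroblasts, lies on chromosome 11 from 119287375 to 119291618, within Rnf213, which encodes a large interferon-induced ubiquitin ligase. Its level was 11.39 in wild-type cells and 14.07 in knockout cells, a 6.41-fold difference. Pairs of levels below are in the same order, on the log2 scale. A second row on Rnf213, AK217856, read 9.78 and 11.81, a 4.06-fold difference. The named Rnf213 row that overlaps the first was at least 6.77-fold higher, just under the floor in the wild type, and the one that overlaps the second 2.95-fold higher. AK134400 lies on Resf1, a silencer of retroelements, and read 11.12 and 12.86, 3.34-fold higher, where a named row was 3.89-fold higher and another, above the knockout floor alone, at least 3.66-fold. BC103805 on Trim34a, a tripartite motif gene, was chosen after its values were seen. It read 11.41 and 12.54, and 2 named rows of the gene above both floors differed by 1.25 and 1.36 on the log2 scale. The other, above the knockout floor alone, was at least 2.10-fold higher. Every named row that overlaps these 4 clones was brighter in the knockout.

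The list of type I interferon-stimulated genes itself holds few of these rows. Of its 76 genes, 70 are on the array, and 129 of their 143 named rows were detected, 98 at least 2-fold higher and 0 lower. Only 5 rows without a gene ID overlap these genes, and 1 was above a floor. That row, AK088880 on Ifi208, a member of the interferon-inducible p200 family, read 5.58 and 9.76, at least 1.57-fold higher. The named Ifi208 row read 9.37 and 10.85. AK152967 lies on Cxcl10, a chemokine that draws T cells, and carries a clone warning. It stayed below both floors at 4.41 and 4.80, while the named Cxcl10 row read 9.26 and 15.16. AK088748, which spans several p200 genes, read 6.52 and 8.30, also below the floors. The 17 interferon-induced GTPase genes on the array had 0 rows without a gene ID.

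Genes of inflammation and activation gave 5 rows, of which 4 were detected, all in the knockout alone. AK089801, a clone from activated spleen recorded as CD69, the early activation antigen of leukocytes, lies on chromosome 6 from 129221093 to 129225387. It read 8.90 in the wild type, under the floor, and 12.36 in the knockout, at least 9.50-fold higher. The named Cd69 row read 8.39 and 14.03. AK137525 on Ccl3, a chemokine of macrophages, read 8.46 and 10.60 (at least 2.81-fold), beside 10.37 and 13.39 for the named row. E01225, a patent record of tumour necrosis factor on Tnf, read 7.70 and 10.34 (at least 2.34-fold), while the named Tnf row lay below both floors at 5.66 and 8.82. AK153376 on Icam1, an adhesion molecule, read 8.86 and 10.13 (at least 2.04-fold), whereas the named row was bright and close on both arrays at 12.79 and 12.92. The fifth, AK042010 on Il1a, lay below both floors at 4.52 and 4.70. The list had 35 named rows detected, 17 of them higher and 0 lower. Monocyte markers stood beside this with a median difference of 0.59 on the log2 scale over 5 genes, of which 4 passed the wild-type floor and 5 the knockout floor, and summed intensities of 6535 and 10843. Their part in these differences was not tested.

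The other large bounds upward lay on Map3k8, Tlr7, Lamp2 and Ms4a6c. AK041009 on Map3k8, a kinase that links toll-like receptors to the ERK pathway, read 7.49 and 11.36, at least 4.75-fold higher. AJ812653, a partial transcript with an exon of Tlr7, the sensor of single-stranded RNA, read 8.87 and 10.62, at least 2.86-fold higher. All 3 named Tlr7 rows were above the knockout floor alone, with bounds of at least 1.41-fold to 1.87-fold. AK139871 on Lamp2, a lysosomal membrane protein, came from a library of 2-cell eggs and read 8.60 and 11.74, at least 6.18-fold higher. The named Lamp2 row that overlaps it lay below both floors at 6.05 and 7.76, and a second named Lamp2 row read 8.08 and 9.80, at least 1.62-fold higher. The named Map3k8 row read 8.54 and 10.17, at least 2.08-fold higher. AK079938 on the monocyte gene Ms4a6c read 8.90 and 10.52, at least 2.66-fold higher. Both named Ms4a6c rows were above the knockout floor alone, at least 3.40-fold and 3.51-fold higher.

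At other loci the difference of a row without a gene ID was larger than that of the brightest named row, or opposite in sign. Among members above both floors the largest difference belonged to AK157605, a clone from activated spleen recorded as E4f1, a transcription factor, on chromosome 17 from 24580723 to 24592256. It read 9.58 and 12.87, 9.80-fold higher. The named E4f1 rows read 9.44 and 8.03 in one case and 7.99 and 7.93 in the other. The first was thus below the floor in the knockout, at least 1.39-fold lower, and the second below both floors. AK157605 also overlaps a named row of another gene, BC026600, and the median difference of the 3 overlapping named rows was -0.05. AK089302 on Ncoa1, a nuclear receptor coactivator, carries a warning that the clone may be reversed, and read 9.44 and 11.53. The brightest named Ncoa1 row read 9.92 and 9.85. Another, above the knockout floor alone, read 8.95 and 9.54, at least 1.34-fold higher. The last lay below both floors at 5.68 and 7.24. BC002288 on B2m, the light chain of class I histocompatibility molecules whose promoter is shown above, lies on chromosome 2 from 121973452 to 121975096 of MM9. It read 10.49 and 12.07, 3.01-fold higher, beside 15.22 and 15.55 for the named row, which was near the top of the scale. BC126968 overlaps Naip6 and Naip7, inflammasome sensors, and read 9.23 and 11.38, with 0.83 for the named Naip6 row. The median difference of its 3 overlapping named rows was 1.27, in the direction of the clone.

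The rest of the 12 largest measured differences upward were smaller. AK209885 on Cotl1 and AK188430 on Arpc5, both regulators of actin filaments, read 13.12 and 14.65, and 9.49 and 11.13. The named Arpc5 rows differed by 0.57 and 1.38 on the log2 scale, and both named Cotl1 rows were above the knockout floor alone, at least 1.20-fold and 1.42-fold higher. AK214583 on Cyb5r4, a reductase, read 11.67 and 13.19, with 1.31 and 1.42 for the 2 named rows that overlap it. Named Cyb5r4 rows that do not overlap it differed by 0.68 and, for the brightest row of the gene, 0.34. AK217959 lay 28 bases from Mcur1 and read 10.21 and 11.74, while that gene's row differed by -0.11. AK043789 lay over 100 kb from any named row and is described with the repeats. BC004835 overlaps Aida, on sequence without a fixed place on chromosome 1, and was chosen after its values were seen. It read 11.09 and 12.54, and the brightest Aida row read 12.22 and 13.88. BC048146, recorded as similar to a folate enzyme, lies on Mthfsl and read 8.89 and 10.30, at least 2.28-fold higher.

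**Figure D3:**
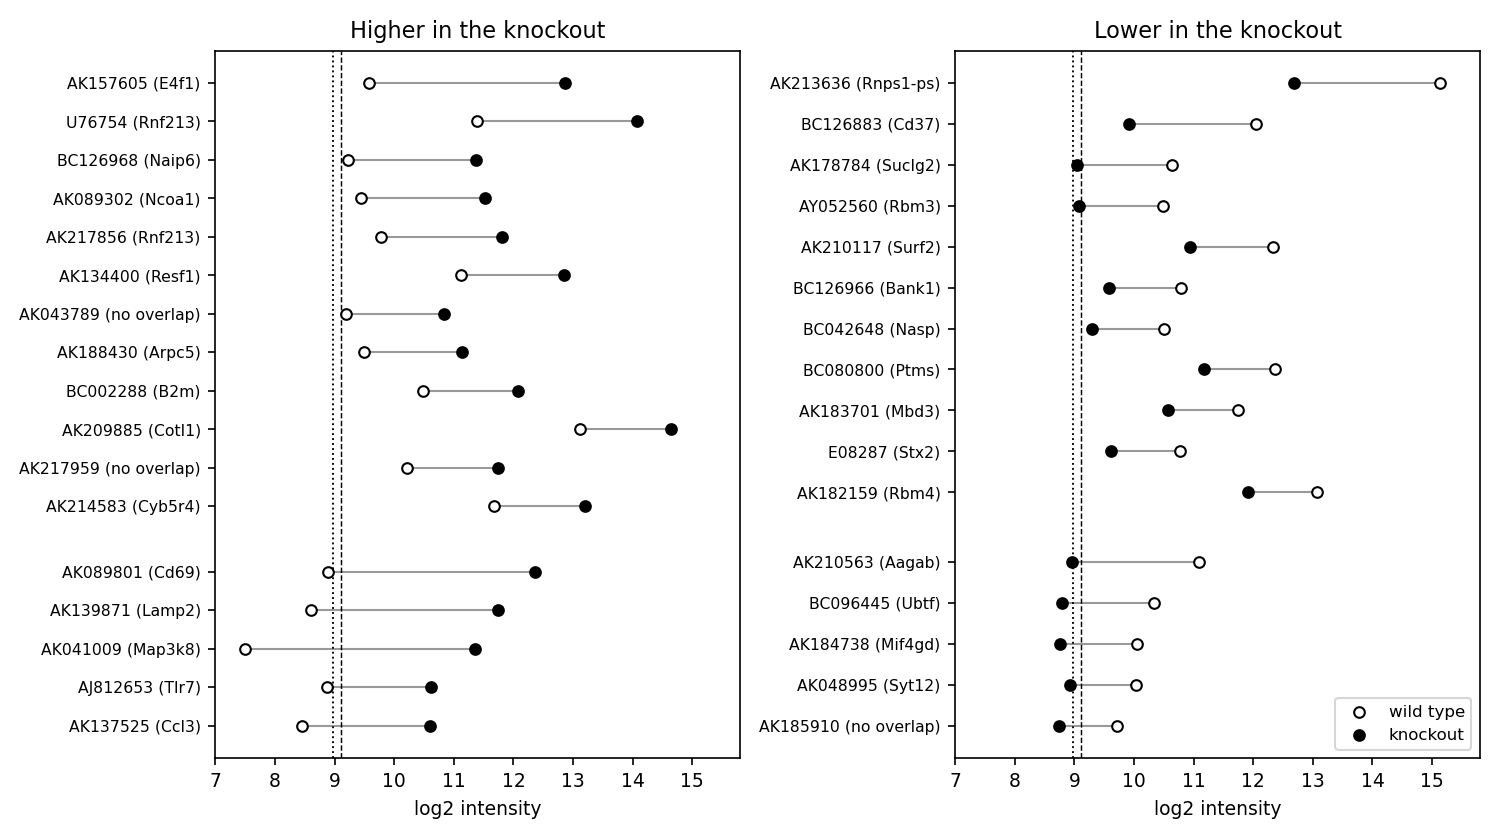
Log2 intensity (x axis) in the wild type (open) and knockout (filled) of the 12 largest measured differences upward, 11 of the 12 largest downward and the 5 largest bounds in each direction, named by the row and the gene it overlaps. Dashed and dotted lines are the floors of the wild type and knockout. AK157605 spans the widest upward gap of the measured rows, and AK213636 the widest downward one.

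The largest measured differences downward lay on Rnps1-ps, Cd37 and Suclg2, and the largest bound downward on Aagab. AK213636, a short clone of 140 bases on chromosome 6 from 7933244 to 7933384 within Rnps1-ps, a pseudogene of a splicing factor, read 15.14 and 12.68, 5.50-fold lower. The named Rnps1-ps row differed by -0.17. BC126883 on Cd37, a tetraspanin of lymphocytes, read 12.05 and 9.92, 4.39-fold lower, while 3 named Cd37 rows above both floors differed by -0.77 to -0.17 on the log2 scale and the other lay below both. AY052560 on Rbm3, a cold-inducible RNA-binding protein, read 10.49 and 9.08, whereas the named rows above both floors read 13.81 to 15.12 and differed by -0.59 to -0.27. AK182159 on the splicing regulator Rbm4 read 13.07 and 11.92. BC126966 on Bank1, a B cell scaffold protein, read 10.78 and 9.58. A named Bank1 row read 9.82 and 8.70, the latter below the floor, while the brightest row overlapping this clone, Gm2258, differed by 0.29. The summed intensity of B lineage markers was 11789 and 2236, and their part in the Cd37 and Bank1 rows was not tested.

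Among chromatin and nucleolar genes, BC042648 on the histone chaperone Nasp read 10.49 and 9.29, and the named row differed by -1.21, much as the clone. BC096445 on Ubtf, the factor of ribosomal RNA transcription, read 10.34 and 8.79, at least 2.58-fold lower, and the brightest named row differed by -1.89. The other named Ubtf rows, all above both floors, differed by -1.29, -0.11 and -0.10, so the named rows were not uniformly lower. AK183701 on Mbd3, a subunit of the NuRD complex, read 11.74 and 10.57. BC119519, at the histone genes H4bc24 and H2bc23 and chosen after its values were seen, was bright at 14.36 and 13.27, while the named H4bc24 row lay below both floors at 6.85 and 7.03. Suclg2, an enzyme of the citric acid cycle, and Stx2, a membrane fusion protein, each had a lower row. AK178784 on Suclg2 read 10.63 and 9.05, and E08287 on Stx2 10.77 and 9.62. AK141415 on Camk1d, a calcium-dependent kinase, read 10.10 and 8.98, and AK043654 on Zfp866, weakly similar to a zinc finger protein, 11.40 and 10.33. XM_001479149, a predicted model on 4930522L14Rik, read 10.17 and 9.13. The named Zfp866 row was level by comparison, at 10.56 and 10.40. At 3 other genes the brightest named row had the opposite sign: AK210117 on Surf2 read 12.34 and 10.94 beside a named difference of 0.03, BC080800 on Ptms 12.36 and 11.18 beside 0.39, and AK210563 on Aagab 11.09 and 8.95 beside 0.36. The Aagab clone lay just below the knockout floor and had the largest bound downward, at least 4.34-fold lower. The other named Aagab row, below both floors, read 8.95 and 7.53, in the direction of the clone. The remaining bounds among the 5 largest were AK184738 on Mif4gd, AK048995 on Syt12 and Rhod, and AK185910, which overlapped no named row. In that order they were no less than 2.11-fold, 2.09-fold and 1.67-fold lower. The named Syt12 row lay below both floors at 4.58 and 4.36, and the brightest named Rhod row was level at 10.16 and 10.02.

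Across all loci, the row without a gene ID and the named row that overlaps it had the same direction at most loci. Of 465 detected rows with an overlapping named row, 281 (60.4%) had the sign of the brightest such row. Of the 59 past 2-fold, 47 (79.7%) had it, 29 of 35 higher and 18 of 24 lower rows. The named row was itself 2-fold or more away in the same direction at 17 of the 35 and 3 of the 24. These counts include named rows below the floors, and with the named row above a floor the sign was shared by 226 of 360 and, past 2-fold, by 42 of 52. Where both rows lay above both floors, differences correlated with r = 0.40 over 262 pairs, and the gap between them had an SD of 0.67 on the log2 scale. The 2 brightest named rows of the same gene gave r = 0.73 over 2892 genes, with an SD of 0.51. The 2 pairings are unlike, since the brightest overlapping row can belong to any gene at the locus, on either strand. The paired rows share both arrays and are not replicates of each other, and correlations are across rows.

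**Figure D4:**
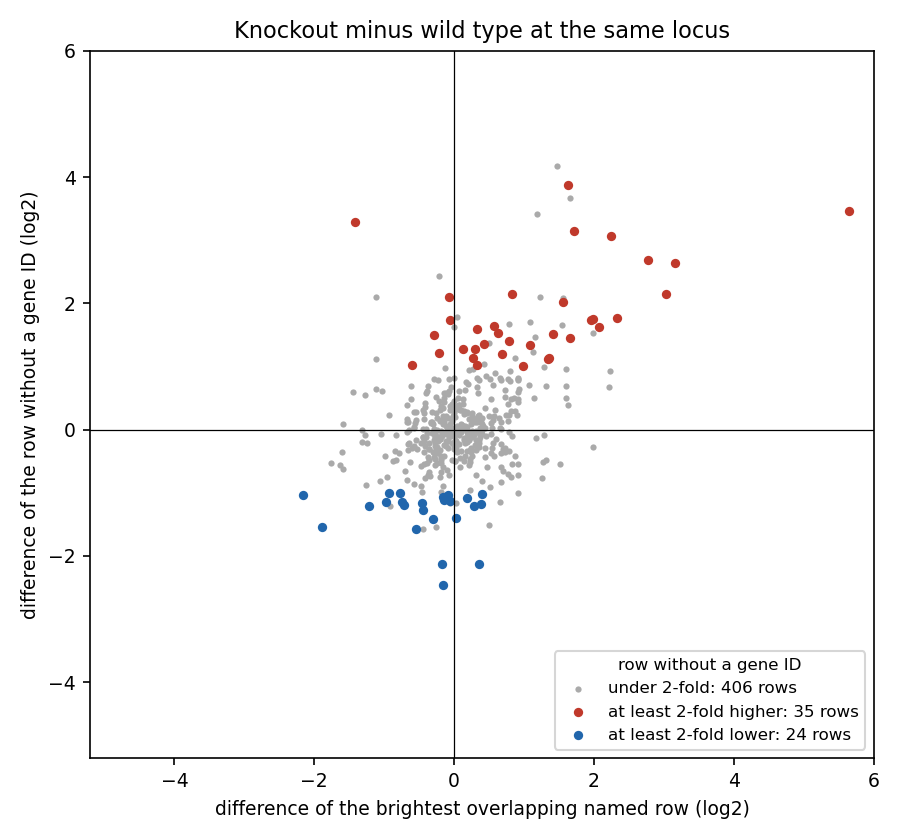
Knockout minus wild type (log2) of each detected row without a gene ID (y axis) against the brightest overlapping named row (x axis), 465 pairs, with raw differences also for rows above 1 floor. Colours mark the 35 rows at least 2-fold higher and 24 lower. Of these, 29 and 18 lie in the quadrant of the same sign.

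All mitochondrial transcripts of the array were among these rows: 7 lie on the mitochondrial chromosome, and 0 rows with a gene ID do. Mitochondria transcribe their own ribosomal RNAs and some subunits of the respiratory chain. Of the 7, 6 were above both floors, at 15.29 to 15.89 in wild-type cells and 15.19 to 15.84 in knockout cells. AK140265, an unclassifiable clone from brain, was the brightest transcript row in wild-type cells, at 15.89 and 15.81. AK131586, recorded as a cytochrome c oxidase subunit, read 15.74 and 15.42, X57780, subunit I of the same enzyme, 15.59 and 15.54, and AK142750, a subunit of NADH dehydrogenase, 15.55 and 15.84. Their differences ran from -0.32 to 0.41 with 2 up and 4 down, so the genotypes showed no common direction. Values this high are near the top of the scale, where differences can be compressed. Rows of the nuclear genome reached the same range. AK220016, a clone on chromosome 5 that overlaps no named row, read 15.50 and 15.59 and was among the 5 brightest members. E09891, chosen after its values were seen, is recorded as an insertion sequence of Ptprd, a receptor phosphatase. It read 15.27 and 14.97, while the named Ptprd row lay far below the floors at 4.84 and 4.75. These bright rows thus differed little between the genotypes.

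Transposon transcripts were bright too. The ETn (early transposon) family is a group of mouse retroelements that move with the proteins of others. AB033515, an ETn 3′ end, read 14.89 and 14.98, and M13188, an ETn repeat, 14.73 and 15.08. AB033524, an ETn 5′ end, read 13.82 and 14.63. U06639, recorded as an ETn p53 mRNA, was 2.03-fold lower, at 12.20 and 11.18. Of 3 other retroviral records, AK043789, described as similar to an envelope protein of the intracisternal A particle, read 9.19 and 10.84, 3.14-fold higher. S94460, another envelope record of that family, read 9.53 and 10.13. S83051, a fusion of gag, env and Myb from a myeloid cell line, read 10.10 and 9.11. The elements exist in many copies, so probes of 1 row can bind transcripts of several, and the directions were mixed. These groups, like the antigen receptor groups below, were gathered after the values were seen.

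Of the immunoglobulin clones above both floors, 6 of 7 on the kappa locus were brighter in the knockout. Of 11 rows on the kappa light chain locus, 7 were above both floors. Of these, 6 read 13.66 to 14.36 in wild-type cells and 14.14 to 15.14 in knockout cells, each 0.43 to 0.82 higher on the log2 scale. The brightest, BC028925, read 14.36 and 15.14, and BC091750 read 14.28 and 15.10. AK036494 went the other way, at 9.82 and 9.11. Of 4 named Igk rows above a floor, 3 were above both. They differed by 0.91, the brightest, 0.70 and -0.10. BC092080, which lies 194021 bases from the nearest named kappa row, read 9.72 and 10.75. That named row went the other way, at 9.39 and 4.57, above the wild-type floor alone and at least 1.34-fold lower. On the heavy chain locus, 3 of 10 rows were detected, among them AK007826 at 9.98 and 10.61 and AK007918 at 7.77 and 9.88. The 4 named Ighm rows above both floors fell by 1.12 to 1.80 on the log2 scale. Named rows of the gamma chains, by contrast, read higher in the knockout: of 5 above a floor, 1 was above both, Ighg BC010327 at 9.84 and 9.96, and the largest bounds belonged to Ighg BC092049 at 7.85 and 10.88 and Ighg3 BC055910 at 7.80 and 10.64. Named Jchain, which joins secreted antibody chains, read 9.92 and 12.76. The heavy chain rows thus did not move one way. The 20 rows that overlap genes of the B lineage list lay on only 2 of its 25 genes on the array, Igkc and Ighm. Of these rows 10 were detected and 0 passed 2-fold. Over the whole list, 20 of 34 detected named rows were lower and 1 higher, a count that takes in all its genes, Igkc and Ighm among them. On Ighm itself the detected rows without a gene ID read higher in the knockout, while the detected named rows read lower. Rows of one kappa locus can share hybridisation and are not independent.

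T cell receptor records, 154 rows, lay mostly below the floors. Above a floor were 30 (19.5%), and of the 18 above both floors 0 were 2-fold away in either direction, with differences from -0.60 to 0.80 and a median of 0.02. U46841, a beta chain, read 11.84 and 11.26, X14387, an alpha chain, 11.25 and 11.36, and U26770, another alpha chain, 11.02 and 10.97. By locus, 20 of 95 rows were detected on chromosome 14 (alpha and delta), 7 of 49 on chromosome 6 (beta) and 3 of 10 on chromosome 13 (gamma). The T and NK cell markers Cd3e and Cd3g read 10.51 and 10.35, and 10.31 and 10.20. Of the other 3 in that list, Cd4 (8.69 and 9.23) and Cd8a (8.23 and 9.41) were above the knockout floor alone and Nkg7 (9.12 and 8.40) above the wild-type floor alone. J04148, perforin, read 10.89 and 10.88. One record outside this class, BC006770, spans 420034 bases of the alpha locus with 31 named genes, and read 9.97 and 11.23.

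**Figure D5:**
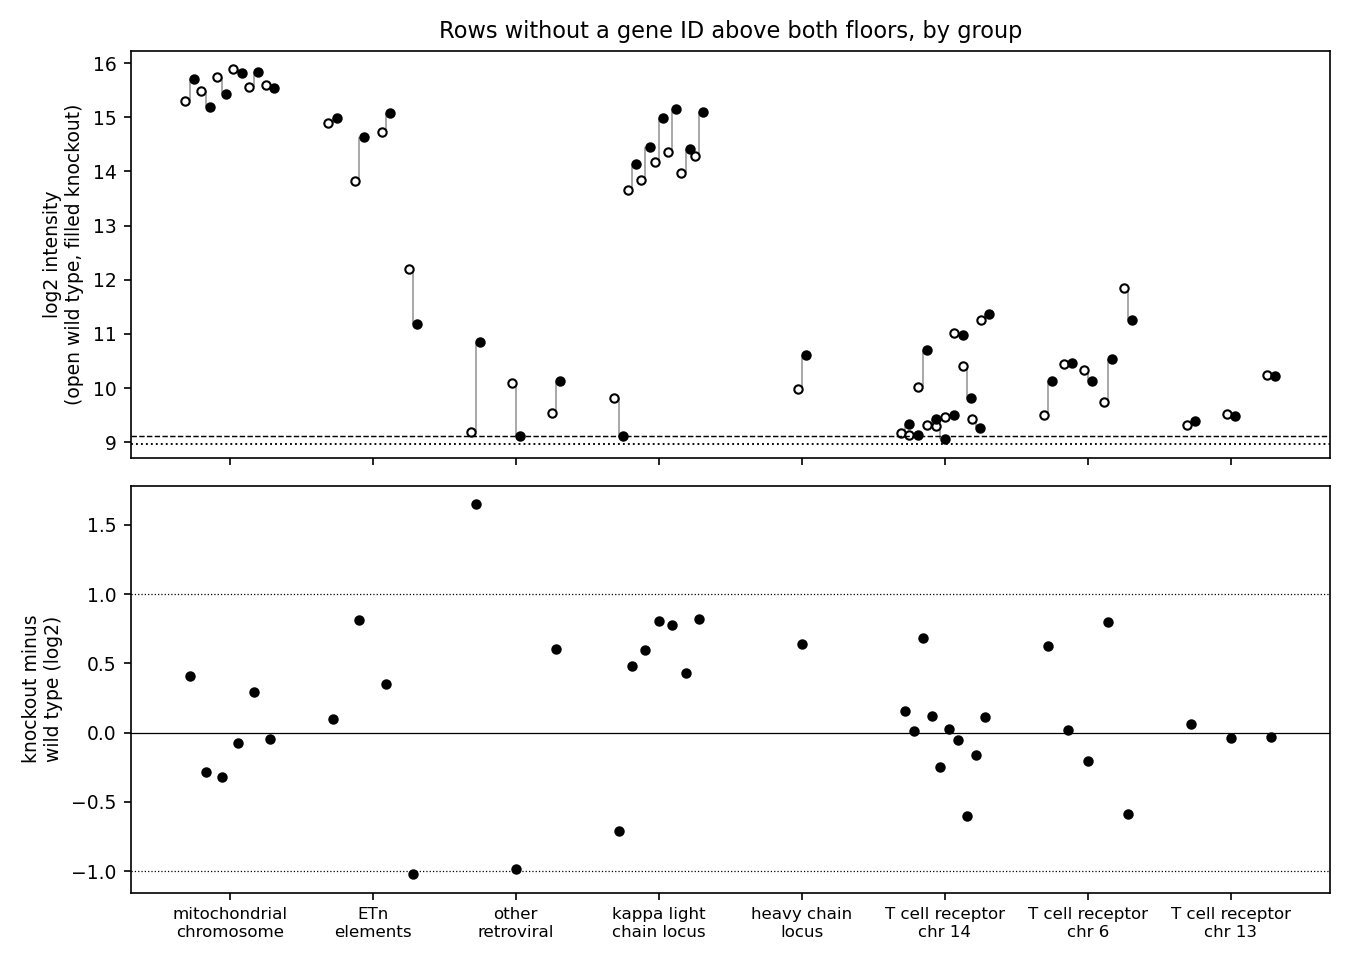
Rows without a gene ID above both floors, in 8 groups. The upper plot gives log2 intensity in the wild type (open) and knockout (filled) with both floors, and the lower plot the difference, with dotted lines at 2-fold. The 6 bright kappa rows all lie above 0, the 6 mitochondrial rows on both sides of it, and the 18 T cell receptor rows within 2-fold.

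Rows on genes of the cell cycle and of stem cells were few and close between genotypes. Of 7 on DNA replication genes, 2 were detected, AK004030, which overlaps Tk1, Afmid and Syngr2, at 9.82 and 10.06 and AK205147 on Mcm3 at 9.65 and 9.57. The record of AK004030 names synaptogyrin 2 (Syngr2) as its product, not the replication gene Tk1. AK169782 on Dut lay below both floors at 8.83 and 7.01. The named rows of that list had 13 of 47 lower and 0 higher. On mitotic genes BC040778 (Ndc80) read 10.12 and 10.49 and BC053341 (Nusap1) 9.65 and 10.26, but these clones span 731325 and 978230 bases with 11 and 28 named genes, and the record of the second names another gene, a Kunitz protease inhibitor. The list had 7 of 53 named rows lower. On stem cell genes, AK078113 on Erg, a factor needed for stem cell maintenance, read 12.55 and 12.12. Rows on Mecom, Meis1 and Txnip lay below both floors. Neutrophil and megakaryocyte genes had 0 rows without a gene ID, and the 2 on erythroid genes, Epor and Gata1, lay below both floors.

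Some signals had no named neighbour at all. Of the 112 rows with no named row within 100 kb, 24 were detected, and 4 of them were at least 2-fold higher and 0 lower, beside backgrounds of 6.14 percent and 3.82 percent. The 4 were AK043789 and BC092080 above both floors, and AK156902 and AK163331 as bounds of at least 2.18-fold and 2.01-fold on chromosome sequence without a fixed place in the assembly. AK135766, from a library of fertilised eggs, lay 25709 bases from Slfn10-ps in the Schlafen cluster, read 8.54 and 10.31, at least 2.30-fold higher, and the Slfn10-ps row differed by 3.51. Bright and level rows were AK149078 at 15.23 and 15.20 and AK135744 at 14.51 and 14.69, both unclassifiable. Clones from reproductive tissue and eggs had 6 of 29 detected rows higher and 0 lower, those of blood and immune tissue 5 of 40 and 0, and those of the nervous system 1 of 40 and 3. The same backgrounds apply, and the libraries were grouped with the values in view. The named noncoding RNA BIC, the precursor of miR-155, lay below both floors at 8.85 and 8.85 (AY096003), as did all 6 Gomafu clones.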

How the data were processed

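Each deposited file holds 1 array's intensity per transcript row on a linear scale. Per the submitters' processing notes the values were made with RMA, whose version is not given, which as generally defined removes differences in total signal. Most rows (44155) summarise 3 probes, and a control row of 5000 random probes read 36.9 on both arrays. Intensities were put on the log2 scale with no further normalization, in Python 3.11.15 with pandas 2.3.3 and statsmodels 0.14.6. The members and gene lists were chosen with earlier results of these data known. Several definitions of the receptor rows behind the floor were compared, and the one closest to an earlier description of these data was kept. Rows above both floors have a measured difference, rows above 1 a bound, and others no fold. Named rows overlap in MM9 span on either strand, as the files give no strand. A planned overlap on the same strand was therefore not run. The series-wide table, also deposited as intensity, differed by at most 1.277e-06 on the log2 scale. RefSeq accessions named 2 of 188 members with such an accession, both below the floors. Symbols of named rows were updated by gene ID, found for 39057 rows.

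The rows named are the 12 largest measured differences and 5 largest bounds in each direction, the 5 brightest, class and list members by rule, and a few others picked with their values in view, as stated beside them. The number of arrays limits the precision. Alternatives were other floors, fold limits, loess centring, the series-wide table, 1 row per locus, rows RefSeq cannot name and other pairings, with some added after seeing the data. Some rows and markers that the rule would name are not reported here.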

Additional observations from a re-analysis of the deposited data

How the results depend on the processing

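No paired analysis was possible because each genotype has 1 array. The count of 42 higher rows became 65 with each array's overall median as floor, 18 with the 99th percentile of receptor rows, 189 with no floor, 91 at 1.5-fold, 12 at 3-fold and, added after seeing the data, 23 above both floors alone. The count of 26 lower rows became 13 with the 99th percentile, 157 with no floor, 65 at 1.5-fold and 3 at 3-fold. These alternatives differ by construction in how many rows can pass. The other counts stayed within 1.5 times: loess centring gave 44 and 22, 1 row per locus (1972 loci) 40 and 26, and receptor rows taken by the symbols of the files (854 rows, added later) 40 and 25. The median difference ranged from -0.05 to 0.03, and changed sign between alternatives. The share of rows past 2-fold with the sign of the named row ranged from 68.0% (no floor) to 84.7% (median of all overlapping rows), beside 79.7%. Joining or pairing rows on the same strand was not run, since the files give no strand, and either strand was used.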
